A study of Mus musculus with 5 samples.

Results

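The genes of the Krüppel-like factor (Klf) family were examined in cultured neural precursors from the subventricular zone of mice. The members are Klf2, Klf3, Klf4, Klf6, Klf7, Klf10, Klf11, Klf13, Klf15 and Klf16, that is 10 of the 46078 genes in the deposited tables, taken by gene name. They were chosen with the values of the comparison between 8 h and 1 h in view, so this comparison is described for them without a test. The cells came from C57BL/6 mice labelled as female, without a mutation and aged 5 to 8 weeks, while the methods of the study give an older age for its subventricular zone cultures. They had been expanded as neurospheres with EGF and FGF, plated on poly-D-lysine and left undifferentiated, and all of them received PBS as a sham exposure. Poly-A RNA was sequenced 1 h later (2 libraries, replicates 1 and 2) or 8 h later (3 libraries, replicates 13, 14 and 15). The series is titled after hydrogen peroxide, but cells exposed to it were not analysed here.

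Krüppel-like factors are transcription factors that bind GC-rich and CACCC sequences through zinc fingers at the C-terminus, a domain that they share with the Sp factors. Their N-terminal parts differ and recruit different partners. Klf3 recruits the corepressor CtBP, Klf10, Klf11, Klf13 and Klf16 recruit the corepressor Sin3, and Klf2, Klf4, Klf6 and Klf7 are known mainly as activators. Several members are induced quickly by growth factors, TGF-beta, glucocorticoids or mechanical stimuli, and in neural cells the family is known for roles in proliferation, differentiation and neurite growth.

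The libraries divided along lines other than time. The library identifiers in the labels fall into 2 number series, series 1 with both 1 h libraries and 8 h replicate 14, and series 2 with 8 h replicates 13 and 15. The sources used here do not say what these series stand for. Each TPM table was given the series of the library it is named for, which the count columns described further on put in doubt. Although the labels give every mouse as female, Xist reached 165 and 199.7 TPM in the libraries of series 2 and at most 0.0611 TPM in those of series 1, where 4 Y chromosome genes summed to between 138 and 181 TPM. Marker levels were those of neural precursors, with 732 TPM of Nes and 212 TPM of Sox2 on average. Of the cells in which Klf2 and Klf4 are best known, endothelial markers summed to 11.96 to 15.4 TPM, nearly all of it Flt1, with Cdh5 and Cldn5 listed at 0 in every library. Myeloid markers summed to 1.31 and 1.49 TPM at 1 h, and their 8 h sums were 0.478 to 0.740 TPM, with Aif1 and Tmem119 listed at 0. Neuron markers summed to 68.1 and 68.3 TPM at 1 h and to between 43.2 and 62.4 TPM at 8 h, and oligodendrocyte markers to between 117.9 and 167 TPM and between 40.1 and 115 TPM. Ependymal markers, mostly Foxj1, summed to 23.7 and 27.5 TPM at 1 h, with 8 h sums of 16.3 to 18.8 TPM. Rsph1 and Ccdc153 overlapped between the groups, and Tmem212 was listed at 0 in every library. Erythroid markers summed to at most 0.906 TPM. Mural markers, nearly all Acta2, summed to 76.0 to 114 TPM in series 1 and to 11.8 and 16.6 TPM in series 2. The part of these marker differences in the results for the members was not tested.

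The members spanned a wide range of levels. TPM, a share of transcripts corrected for gene length, allows levels to be compared between genes. By the mean over the 5 libraries, Klf3 (104 TPM), Klf6 (95.2 TPM) and Klf10 (62.7 TPM) were highest, and Klf3 lay at the 87.9th percentile of the genes whose mean TPM was at least 1. Klf13 and Klf7 followed with 28.2 and 28.1 TPM and did not differ beyond their spread. Klf16 had 14.2 TPM, Klf15 and Klf4 had 8.42 and 8.21 TPM, Klf11 had 3.82 TPM, and Klf2 was lowest with 0.675 TPM. Thus 9 of the 10 members passed the filter of a mean TPM of 1, and Klf2 did not.

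**Figure D1:**
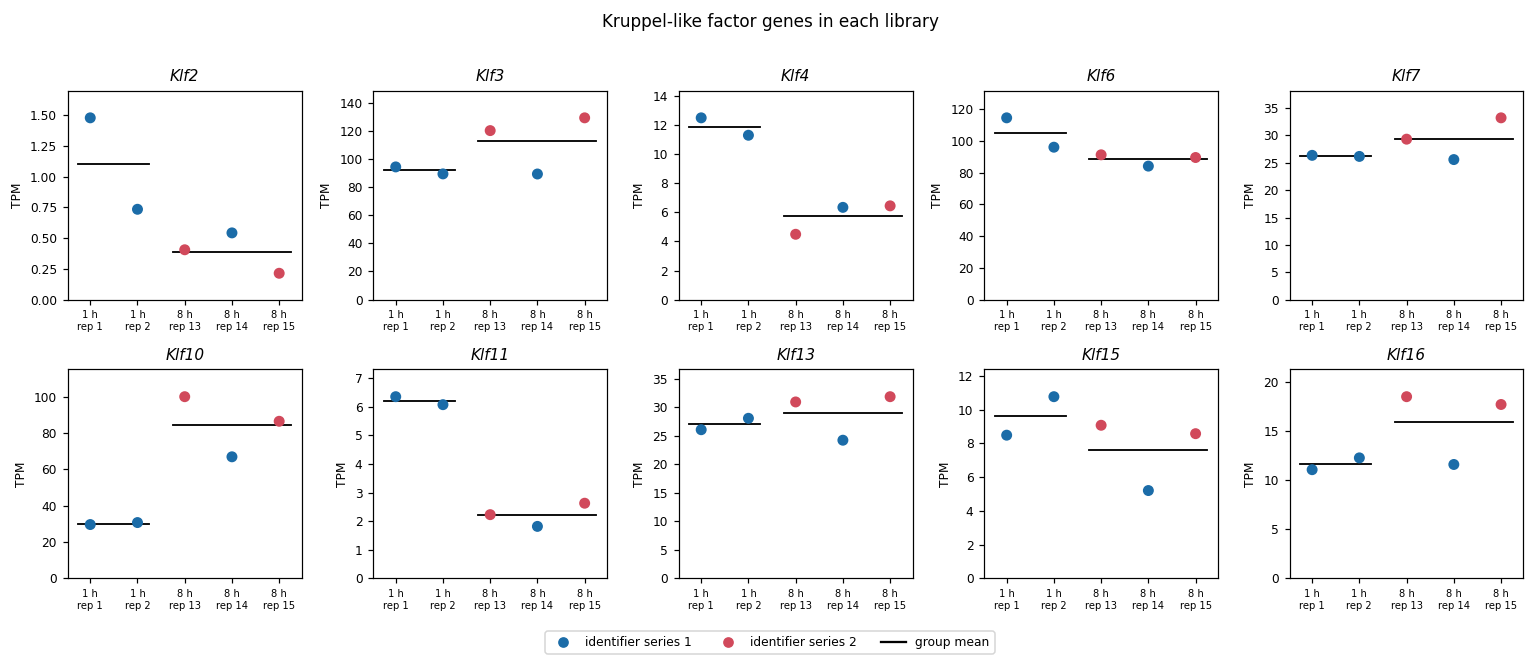
TPM of each of the 10 members (y axis, from 0, a different scale per panel) in the 5 libraries (x axis); points are libraries, coloured by identifier series, and lines are group means. Klf10 lies higher in all 3 libraries taken at 8 h than in both taken at 1 h, Klf2, Klf4, Klf6 and Klf11 lie lower, and the groups of the remaining members overlap.

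Between 1 h and 8 h, the 2 TGF-beta inducible members Klf10 and Klf11 stood in opposite directions. In mean, Klf10 was 2.80 times as high at 8 h and Klf11 was 2.79 times as high at 1 h. Klf4 was also lower at 8 h, whereas Klf3, Klf7, Klf13, Klf15 and Klf16 overlapped between the groups. Bulk libraries cannot tell a change in RNA per cell from a change in the number of cells that carry it.

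Klf10, also known as TGF-beta inducible early gene 1, represses transcription through Sin3. Its gene lies on chromosome 15 (GRCm38, 38294413 to 38300707, minus strand). It measured 29.6 and 30.7 TPM in the 1 h pair (replicates 1, 2), against 99.9, 66.9 and 86.4 TPM for 8 h replicates 13, 14 and 15. The lowest 8 h library thus exceeded the highest 1 h library, and 8 h replicate 14 was the lowest of the 3. The level averaged 30.2 ± 0.770 TPM (SD, n = 2) at 1 h against 84.4 ± 16.6 TPM (SD, n = 3) at 8 h. The difference on the log2(TPM + 1) scale was 1.43 ± 0.18 (SE), and it ranged from 1.30 to 1.59 when each library was left out in turn. Within identifier series 1, where 8 h replicate 14 is the only 8 h library, it was 1.12, a ratio of 2.22 to the mean at 1 h.

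Klf11, or TGF-beta inducible early gene 2, is the closest relative of Klf10 among the members and is likewise a Sin3-binding repressor. Its gene lies on chromosome 12 (24651371 to 24662774, plus strand). It measured 6.35 and 6.07 TPM in the 1 h pair (replicates 1, 2), against 2.23, 1.82 and 2.63 TPM for 8 h replicates 13, 14 and 15. All 8 h values lay below both 1 h values, with 8 h replicate 14 again the lowest. Averages were 6.21 ± 0.197 TPM (SD, n = 2) at 1 h against 2.23 ± 0.405 TPM (SD, n = 3) at 8 h. On the log2(TPM + 1) scale the difference was -1.17 ± 0.18 (SE), and it was -1.35 within identifier series 1. The mean coverage behind these values was between 4.05 and 12.6 reads per base, against 73.0 to 299 for Klf10.

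Because both genes were measured in the same libraries, their ratio does not depend on how a library is scaled. The ratio of Klf10 to Klf11 was 4.67 and 5.06 in the 1 h libraries, and 44.8, 36.8 and 32.9 in 8 h replicates 13, 14 and 15. In these TPM tables the lowest ratio at 8 h exceeded the highest at 1 h. In the deposited count table, described further on, the same ratio was 3.65 and 3.92 in the 1 h columns, 28.5 and 35.0 in the columns named 8 h replicates 13 and 15, and 2.64 in the column named replicate 14.

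The other Sin3-binding members showed no such pattern. Klf13, first described as a regulator of globin and chemokine genes, measured 26.1 and 28.1 TPM in the 1 h pair, against 31.0, 24.2 and 31.9 TPM for 8 h replicates 13, 14 and 15. The 8 h values lay on both sides of those at 1 h, so the groups overlapped, and the log2 difference was 0.087 ± 0.15 (SE). Klf16, a repressor first studied at dopamine receptor genes, measured 11.1 and 12.3 TPM in the 1 h pair, against 18.5, 11.6 and 17.7 TPM for 8 h replicates 13, 14 and 15. Here the libraries of series 2 were high and 8 h replicate 14 lay between the 1 h libraries. The log2 difference of Klf16 was 0.39 ± 0.22 (SE) over all libraries and -0.0065 within series 1.

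Klf4, which regulates cell cycle exit and pluripotency, lies on chromosome 4 (55527143 to 55532466, minus strand). It measured 12.5 and 11.3 TPM in the 1 h pair (replicates 1, 2), against 4.49, 6.34 and 6.44 TPM for 8 h replicates 13, 14 and 15. The groups did not overlap, and here 8 h replicate 14 did not stand apart from the other 8 h libraries. It averaged 11.9 ± 0.847 TPM (SD, n = 2) at 1 h against 5.76 ± 1.10 TPM (SD, n = 3) at 8 h, 2.07 times as much at 1 h. The log2 difference was -0.94 ± 0.19 (SE), between -1.02 and -0.80 with each library left out, and -0.81 within series 1.

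Klf2, a close relative of Klf4 and a flow-responsive factor of endothelium, measured 1.48 and 0.735 TPM in the 1 h pair. Its values were 0.406, 0.543 and 0.214 TPM for 8 h replicates 13, 14 and 15. The 8 h values were all lower, but the coverage of the gene was between 0.510 and 3.64 reads per base, and the 1 h replicates differed from each other by more than the lower of them differed from the 8 h libraries. It was not among the genes fitted with the filter.

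Klf6 and Klf7 are related activators that are known from injury responses and axon growth. Klf6 measured 115 and 96.1 TPM in the 1 h pair, against 91.3, 84.2 and 89.6 TPM for 8 h replicates 13, 14 and 15. Its groups did not overlap, but the gap between the nearest libraries was smaller than the distance between the 1 h replicates. The log2 difference of Klf6 was -0.25 ± 0.11 (SE), and it was -0.12 without 1 h replicate 1 and -0.37 without 1 h replicate 2. Klf7 measured 26.4 and 26.2 TPM in the 1 h pair, and its 8 h values ranged from 25.6 to 33.2 TPM, so that its groups overlapped.

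Klf3, a CtBP-dependent repressor, measured 94.3 and 89.4 TPM in the 1 h pair, against 120.2, 89.3 and 129.2 TPM for 8 h replicates 13, 14 and 15. Only the libraries of series 2 were higher, and 8 h replicate 14 was level with 1 h replicate 2. Its log2 difference was 0.28 ± 0.17 (SE) and -0.040 within series 1. Klf15, a glucocorticoid-induced regulator of amino acid and lipid metabolism, measured 8.48 and 10.8 TPM in the 1 h pair, against 9.07, 5.21 and 8.57 TPM for 8 h replicates 13, 14 and 15. Its groups overlapped, and 8 h replicate 14 had the lowest value.

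**Figure D2:**
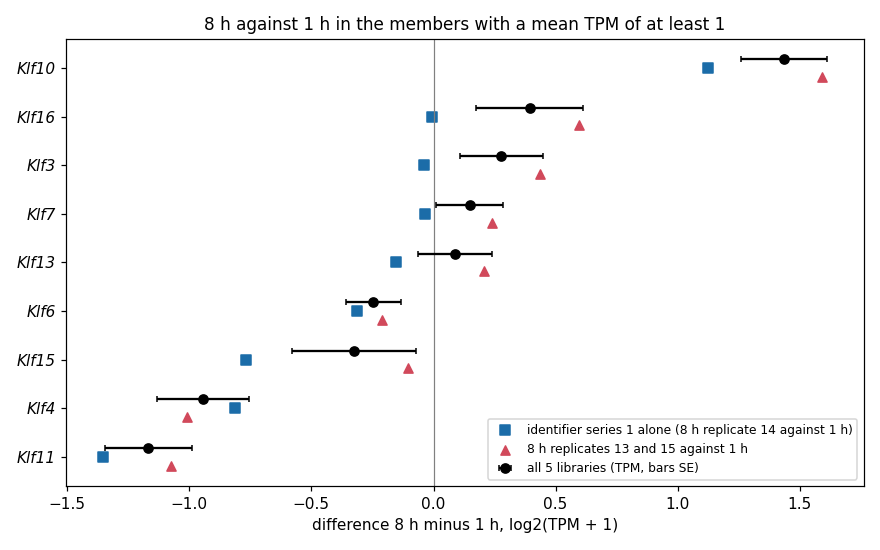
Difference between 8 h and 1 h on the log2(TPM + 1) scale (x axis) for the 9 members whose mean TPM was at least 1 (y axis), over all 5 libraries (black, bars are SE), within identifier series 1 (squares) and with 8 h replicates 13 and 15 only (triangles). The 3 values of Klf10 lie between 1.12 and 1.59 and those of Klf11 between -1.35 and -1.07, whereas the values of Klf3, Klf7, Klf13 and Klf16 lie on both sides of 0.

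Counts over the members were read beside those over all genes. Values at 8 h lay above those at 1 h without overlap for 1 of the 9 members that passed the filter, against 23.7% of all 13870 genes, and below for 3 of the 9, against 9.43%. A log2 difference above 1 was seen for 1 of the 9, Klf10, against 1.11% of all genes, and one below -1 for 1, Klf11, against 0.634% (in either direction, 2 against 1.74%). A gene was called with limma where its adjusted p was 0.05 or less and its log2 difference exceeded 1 in size. This held for 0.0433% of all genes, and 12.3% had an unadjusted p under 0.05. As the members were chosen on this comparison, nothing is read from these counts. The median difference of the 9 members was 0.087, beside 0.10 for all genes.

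**Figure D3:**
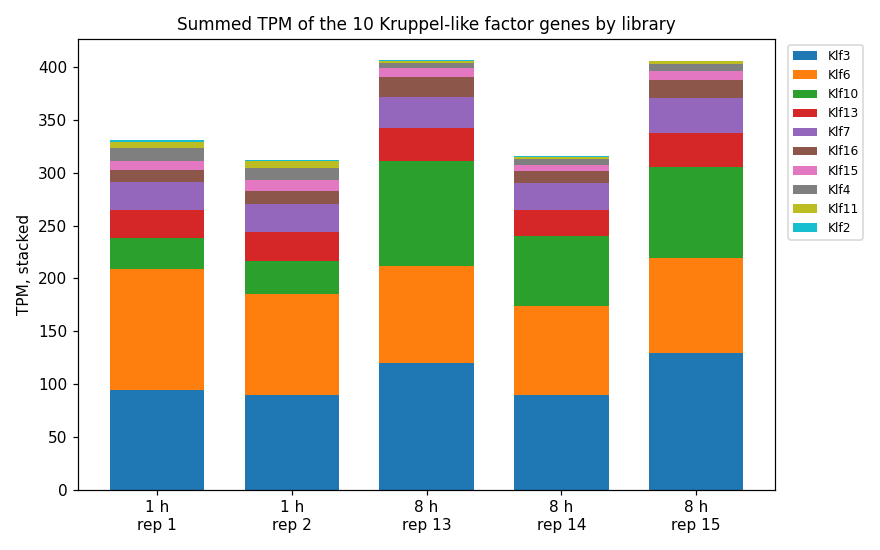
Summed TPM of the 10 members (y axis, stacked bars from 0) in each of the 5 libraries (x axis), with the members in order of mean level. The sums are 331 and 312 TPM at 1 h and range from 316 to 406 TPM at 8 h, and the share of Klf10 is larger in each 8 h library than in either 1 h library.

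The make-up of the family differed between the times. Klf6 ranked first at 1 h, with 34.6% and 30.8% of the summed TPM of the members in replicates 1 and 2. Klf3 ranked first in each 8 h library, with between 28.3% and 31.8%. The share of Klf10 was 8.96% and 9.86% at 1 h, and 24.6%, 21.2% and 21.3% in 8 h replicates 13, 14 and 15, while Klf4 went from 3.78% and 3.63% to between 1.11% and 2.01%. The members summed to 331 and 312 TPM at 1 h, and 8 h replicate 14, with 316 TPM, lay between these sums. The 8 h replicates 13 and 15 had 406 TPM each.

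A further question was how the members differed between the identifier series, which did not define the choice of members. The same 8 h values were in view when the members were chosen, so these tests are not independent of that choice. The contrast was fitted with time as a term and sets 8 h replicates 13 and 15 against 8 h replicate 14 alone, so the lone library is assumed to vary like the others. With limma, 0 of 9 members were called, against 4.02% of all genes, and 0 of 9 passed on the adjusted p alone, against 9.09%. Unadjusted, p was under 0.05 for 5 of 9, against 26.4%. Fitted differences were positive, that is higher in series 2, for 8 of 9 members, with a median of 0.36 beside 0.11 for all genes. The smallest adjusted p-values by limma were those of Klf3 (log2 difference 0.48 ± 0.11, SE, adjusted p = 0.0538) and Klf16 (0.60 ± 0.14, SE, adjusted p = 0.0553). Klf15 had the largest difference (0.66 ± 0.18, SE, limma, adjusted p = 0.0842), with Klf10 at 0.47 ± 0.13 (SE, limma, adjusted p = 0.0846). For Klf4, Klf6 and Klf11 the differences were -0.20 ± 0.22, 0.10 ± 0.14 and 0.28 ± 0.19 (SE). The libraries of series 2 also differed in Xist and in astrocyte markers, which summed to 1410 and 1464 TPM there and to between 865 and 986 TPM in series 1. The part of these differences in the values of the members was not tested.

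The deposited count table, which lists part of the genes only, held 7 members, without Klf2, Klf13 and Klf16. Its columns were first set against the TPM tables by the change from 1 h replicate 1 over 6854 genes. The column of 1 h replicate 2 came within 0.1 log2 of its own table for 78.0% of these genes. The column named 8 h replicate 13 followed the table of replicate 14 (78.3%) rather than its own (26.1%), and the column named replicate 15 followed the table of replicate 13 (76.9%; its own, 40.9%). The column named 8 h replicate 14 followed no table, with 38.2% at most. Columns are given here under their deposited names. The column that followed the table of replicate 14 carries an identifier of series 2. The series given here for the 8 h TPM tables thus rests on their names alone.

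The unmatched column stood apart for several members. Klf11 had 17.7 and 17.4 CPM (counts scaled to the column total) at 1 h, 5.10 and 5.71 CPM in the columns named 8 h replicates 13 and 15, and 27.2 CPM in the column named replicate 14. That column held the highest value of the 5, whereas the other 8 h columns lay below both 1 h columns. Its log2 fold change by edgeR was -0.51 ± 0.72 (SE) with all columns and -1.71 ± 0.18 (SE) without that column. Klf4 likewise had 38.1 CPM there, whereas the remaining 8 h columns had 14.0 and 8.72 CPM and the 1 h columns 27.6 and 24.4 CPM. For Klf4 the log2 fold change went from -0.40 ± 0.57 (SE) to -1.21 ± 0.27 (SE) without it.

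Klf10 had 71.6 CPM in the unmatched column, close to its 64.6 and 68.1 CPM at 1 h, and 145 and 199.8 CPM in the columns named 8 h replicates 13 and 15. Its log2 fold change by edgeR was 1.04 ± 0.40 (SE), and 1.36 ± 0.17 (SE) without that column. Klf6 was lowest in the unmatched column, with 175 CPM while both remaining 8 h columns had 252 CPM, and the 1 h columns 344 and 293 CPM. Klf3, Klf7 and Klf15 had log2 fold changes of -0.066, -0.057 and -0.38. Over the whole count table edgeR called 0.0% of 7590 genes, and 2.62% had an unadjusted p under 0.05. Member values at 8 h lay above those at 1 h without overlap for 1 of the 7, against 11.6% of the listed genes, and below for 1, against 7.04%. Nothing is read from these counts either, since the members were chosen on this contrast.

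**Figure D4:**
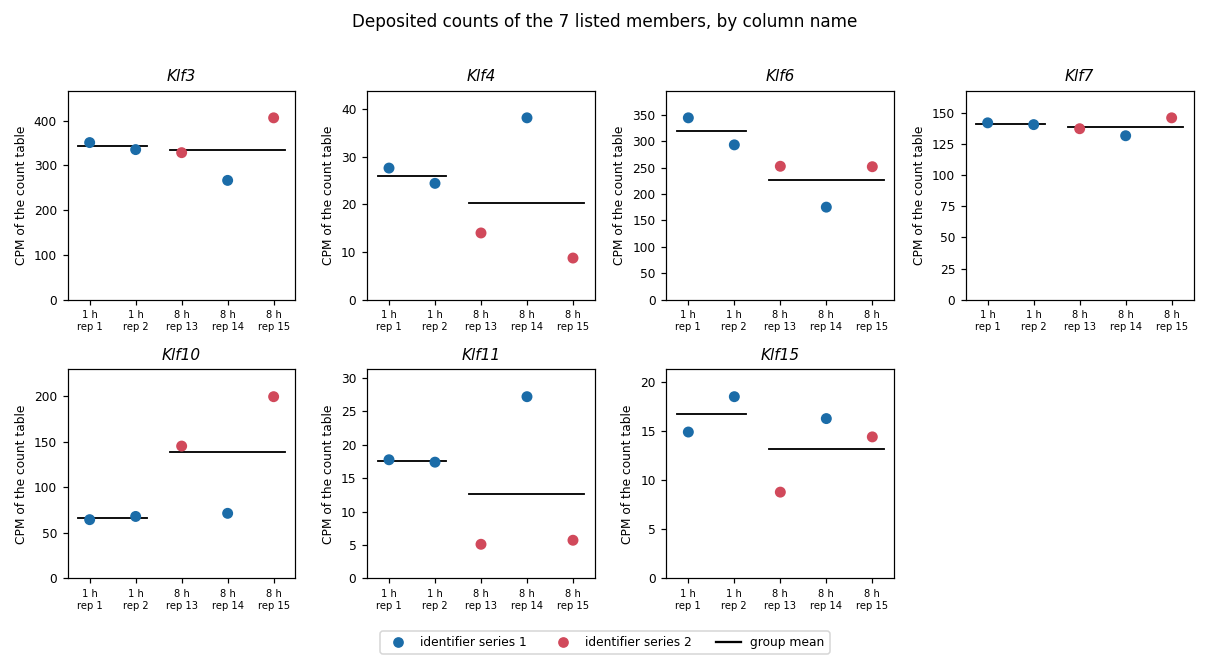
Counts of the 7 members listed in the count table, as CPM (y axis, from 0, a different scale per panel), in the 5 columns by their deposited names (x axis); points are columns, coloured by identifier series by name, and lines are group means. For Klf4 and Klf11 the column named 8 h replicate 14 is the highest of the 5, at 38.1 and 27.2 CPM.

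Promoter windows were searched for 10 motifs on both strands. Windows of 250 bases before the RefSeq start (GRCm38.p6) were found for 8 of the 10 members, not for Klf10 and Klf16. The whole Klf7 window lay inside the annotated gene, as did 133 bases for Klf3, 97 for Klf11, 29 for Klf2 and 7 for Klf6. Full windows were searched. The E-box CACGTG, a palindrome bound by the CLOCK-BMAL1 and MYC families, occurred in 4 of these 8 windows, against 6.0% of all 32851 windows and 9.3% of those with a GC content of at least 60%. It was found in Klf4, Klf6 and Klf11, which were lower at 8 h, but also in Klf15, whose groups overlapped, and not in Klf2, Klf3, Klf7 or Klf13. This motif was picked for display after its matches were seen, because it occurs in few windows overall and 3 of its 4 members here were lower at 8 h. The windows with a match are shown 5′ to 3′ on the strand of the gene, with the E-box in capitals, and those of Klf6 and Klf11 end where GENCODE vM21 places the first base of the gene:
Klf4 (chr4:55532476-55532725, minus strand): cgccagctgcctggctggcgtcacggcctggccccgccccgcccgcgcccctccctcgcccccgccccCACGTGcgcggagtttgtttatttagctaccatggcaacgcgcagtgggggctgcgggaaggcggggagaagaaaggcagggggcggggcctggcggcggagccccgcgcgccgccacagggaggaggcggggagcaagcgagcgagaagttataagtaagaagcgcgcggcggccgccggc
Klf6 (chr13:5861239-5861481, plus strand): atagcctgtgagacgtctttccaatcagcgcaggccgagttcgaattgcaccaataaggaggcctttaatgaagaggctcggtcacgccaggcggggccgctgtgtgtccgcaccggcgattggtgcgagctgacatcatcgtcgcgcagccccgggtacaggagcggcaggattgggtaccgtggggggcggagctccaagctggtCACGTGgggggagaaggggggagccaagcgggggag
Klf11 (chr12:24651121-24651273, plus strand): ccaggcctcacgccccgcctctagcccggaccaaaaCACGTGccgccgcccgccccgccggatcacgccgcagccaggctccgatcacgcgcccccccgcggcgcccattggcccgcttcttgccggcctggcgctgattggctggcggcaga
Klf15 (chr6:90462326-90462575, plus strand): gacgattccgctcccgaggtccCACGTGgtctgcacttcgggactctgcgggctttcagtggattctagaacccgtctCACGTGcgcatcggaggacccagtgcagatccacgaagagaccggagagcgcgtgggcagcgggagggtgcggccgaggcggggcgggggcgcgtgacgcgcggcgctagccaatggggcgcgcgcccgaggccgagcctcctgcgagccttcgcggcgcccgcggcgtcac
The E-box begins 182 bases before the start of Klf4, 43 before that of Klf6 and 214 before that of Klf11, and Klf15 holds a pair of them, 228 and 172 bases before its start. A match is a description of these letters and not a site in use. The GC box GGGCGG, to which Sp and Krüppel-like factors bind, was present in all 8 windows, against 32.7% of all windows. The GC content of the 8 was between 59.2% and 78.4%. Only the E-box was also set against GC-rich windows, so the part of GC content in the other motifs was not tested. CACCC was found in 5 of 8, against 52.0%, CCAAT in 4 of 8, against 33.8%, and the partial CRE TGACG in 4 of 8, against 17.8%. The full CRE TGACGTCA, the AP-1 motif TGANTCA, the TATA box TATAAA, the CArG box and the D-box TTATGTAA were found in 0 of 8, against 1.5%, 6.7%, 12.4%, 1.5% and 0.8% of all windows.

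The remaining family genes are no members and were tested, but they are what the choice of members left over, and all lists were drawn up with earlier results known, so these tests are not independent of that choice. Of the 7 other Klf genes, 3 reached a mean TPM of 1, and 0 of these 3 were called with limma, while 2 had an unadjusted p under 0.05, against 12.3% of all genes. Klf9, a glucocorticoid- and clock-responsive relative of Klf13, measured 19.0 and 21.2 TPM in the 1 h pair, against 33.8, 25.6 and 34.5 TPM for 8 h replicates 13, 14 and 15. All 8 h values lay above those at 1 h, with a log2 difference of 0.60 ± 0.16 (SE, limma, adjusted p = 0.312). Its difference was 0.33 within series 1. Klf5, which promotes proliferation in epithelia, measured 2.94 and 2.28 TPM in the 1 h pair, and its 8 h values ranged from 1.32 to 1.74 TPM (log2 difference -0.48 ± 0.19, SE, limma, adjusted p = 0.402). Klf12, a CtBP-binding relative of Klf3, had between 30.2 and 33.2 TPM in every library, with a log2 difference of 0.010 ± 0.10 (SE, limma, adjusted p = 0.964). Klf8 had between 0.580 and 1.02 TPM, Klf1 and Klf14 had at most 0.206 and 0.0665 TPM, and Klf17 was listed at 0 in each library.

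Of the 9 Sp genes, Sp1, Sp2, Sp3 and Sp4 reached a mean TPM of 1. Sp3 was highest with between 54.2 and 66.5 TPM, followed by Sp1 with between 41.9 and 55.0 TPM. Sp2 had between 14.0 and 24.9 TPM and Sp4 between 5.25 and 9.18 TPM. With limma 0 of these 4 were called and 0 had an unadjusted p under 0.05. Their log2 differences lay between -0.32 and 0.39, with adjusted p-values between 0.441 and 0.535.

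**Figure D5:**
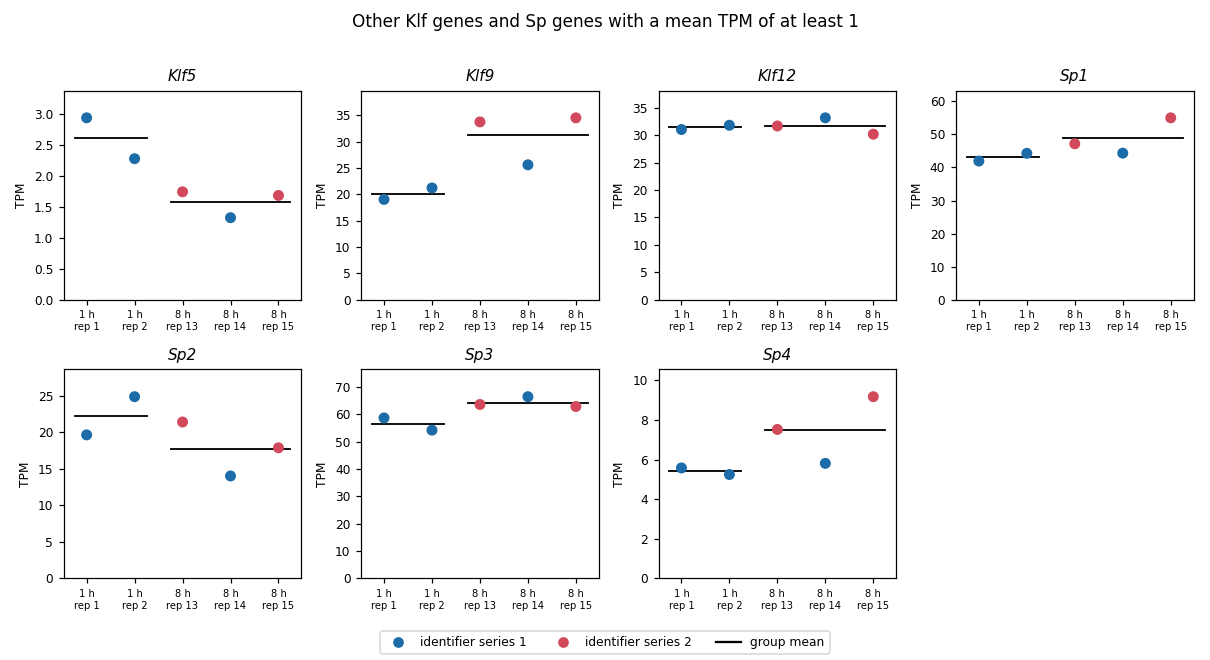
TPM (y axis, from 0, a different scale per panel) of the 3 other Klf genes and the 4 Sp genes whose mean TPM was at least 1 in the 5 libraries (x axis); points are libraries, coloured by identifier series, and lines are group means. Klf9 stands at 19.0 and 21.2 TPM at 1 h and at 25.6 to 34.5 TPM at 8 h, and Klf12 between 30.2 and 33.2 TPM throughout.

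Genes that work with the family were read from lists of cofactors, upstream regulators and targets. All 11 cofactor genes were tested, and limma called 0 of them, with 2 of 11 at an unadjusted p under 0.05, against 12.3% of all genes. The corepressor gene Sin3a measured 29.1 and 26.9 TPM in the 1 h pair, against 38.2, 35.8 and 43.3 TPM for 8 h replicates 13, 14 and 15 (log2 difference 0.46 ± 0.12, SE, limma, adjusted p = 0.309). Crebbp, a coactivator and acetyltransferase, was lower in every 8 h library (-0.49 ± 0.17, SE, limma, adjusted p = 0.38), and the acetyltransferase gene Kat2b overlapped between groups (0.29 ± 0.15, SE, limma, adjusted p = 0.449).

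Of 18 upstream genes, 17 were tested and 0 were called with limma, with 4 of 17 at an unadjusted p under 0.05, against 12.3% of all genes. Mef2c, which encodes a factor that induces Klf2 and Klf4, measured 21.3 and 17.1 TPM in the 1 h pair, against 9.65, 12.6 and 5.74 TPM for 8 h replicates 13, 14 and 15. All 8 h values were lower, with a log2 difference of -1.02 ± 0.31 (SE, limma, adjusted p = 0.345). Mapk7, which encodes the ERK5 kinase that activates MEF2 factors, was higher in every 8 h library (0.57 ± 0.24, SE, limma, adjusted p = 0.404), as was the clock activator gene Arntl (0.69 ± 0.20, SE, limma, adjusted p = 0.337). The median of the list was 0.057, beside 0.10 for all genes.

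Of 14 genes known as targets of single members, 8 were tested and 0 were called with limma, with 2 of 8 at an unadjusted p under 0.05, against 12.3% of all genes. Lgals3, which Klf3 represses, measured 12.4 and 13.3 TPM in the 1 h pair, and its 8 h values ranged from 5.52 to 9.42 TPM (log2 difference -0.68 ± 0.23, SE, limma, adjusted p = 0.369). The cyclin gene Ccnd1 measured 1191 and 1189 TPM in the 1 h pair, and its 8 h values ranged from 1387 to 1915 TPM (0.52 ± 0.16, SE, limma, adjusted p = 0.365). Thbd, a target of Klf2 in endothelium, overlapped between groups (-0.45 ± 0.47, SE, limma, adjusted p = 0.643), and its difference was 0.36 within series 1. Within that series the differences were smaller in size for Sin3a (0.35), Crebbp (-0.21), Kat2b (0.083), Mef2c (-0.56), Mapk7 (0.19), Arntl (0.33), Lgals3 (-0.41) and Ccnd1 (0.22).

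Klf10 had the widest range over the libraries among the members, and genes with a similar pattern were sought among 9977 named protein-coding genes (predicted Gm and Rik genes left out) whose mean TPM was at least 5. Likeness was the root mean square distance between log2(TPM + 1) profiles centred over the 5 libraries. The nearest was Aebp2, which encodes a subunit of Polycomb repressive complex 2, at a distance of 0.132. It measured 22.0 TPM in both 1 h libraries, against 57.9, 47.5 and 56.0 TPM for 8 h replicates 13, 14 and 15. Ppp1r3c, Prr5l, AK157302 and Nab2 followed at distances between 0.185 and 0.191. Nab2, an early-response corepressor of EGR factors, measured 37.3 and 47.0 TPM in the 1 h pair, and its 8 h values ranged from 71.9 to 105 TPM.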

How the data were processed

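RNA of 5 libraries was sequenced by the study as stranded, poly-A selected paired-end libraries, and reads were aligned by the authors with STAR (nf-core/rnaseq workflow, GRCm38). The deposited count table holds raw read counts per Ensembl gene from featureCounts (7599 genes, described as filtered, by a filter not stated in the sources). Column totals were between 13988166 and 18572154 counts and cover these genes only. For each library the authors deposited a table of 46078 genes with TPM, FPKM and coverage per gene, laid out like StringTie's gene abundance output (tool not given in the sources used here). Deposited FPKM and coverage were used for depth alone: their ratio was between 4.00 and 5.21, and coverage is the mean number of reads per base. TPM was summed per gene identifier (15 to 20 repeated rows per table). Value columns left unassigned numbered 0, and 0 count rows lacked a gene.

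Titles gave the groups and replicate numbers, and replicates were taken as separate animals, as the study defines them. The members and all lists were chosen with earlier results of these data known. The comparison of 8 h with 1 h was fitted with limma 3.58.1 (R 4.3.3) on log2(TPM + 1), using the 13870 genes whose mean TPM reached 1, and Benjamini-Hochberg adjustment over all of them. Differences on this scale understate those of low genes. Calls required an adjusted p no larger than 0.05 together with a log2 difference above 1 in size. Counts were tested with edgeR 4.0.16 (quasi-likelihood test, TMM), and with DESeq2 1.42.0 as an alternative. The fits were tested on simulated data. Other alternatives were pseudocount 0.1, no filter, median-ratio scaling, identifier series as a term or series 1 alone, and leaving out each library. Genes named in the text are the members, the other Klf and Sp genes, the 3 genes with the largest absolute difference in each of the cofactor, upstream and target lists, the markers, and the 5 genes most like the member with the widest range. Gene coordinates are those of the deposited tables. The sources do not state whether counting used strand. Klf3, Klf7 and Klf13 overlap genes on the opposite strand, which had at most 6.69 TPM.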

Additional observations from a re-analysis of the deposited data

How the results depend on the processing

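No paired analysis was possible because the groups share no replicate number. On the TPM tables limma called 6 genes between 8 h and 1 h. This count was 19 with identifier series as a term, 0 with no filter on low values (2371 at an unadjusted p under 0.05), and between 0 and 568 when each library was left out. It was 568 without 8 h replicate 14, when time and series can no longer be told apart, 1 without 8 h replicate 13, and 0 without 8 h replicate 15 or either 1 h replicate. In the counts, 0 genes were called under every setting run, with 199 at an unadjusted p under 0.05 by edgeR and 227 by DESeq2. Between the identifier series limma called 558 genes, 0 with no filter (4642 at an unadjusted p under 0.05), and between 23 and 644 with a library left out (63 without 8 h replicate 13, 23 without 8 h replicate 15). This contrast could not be fitted without 8 h replicate 14. Without a time term, 3 of 9 members (Klf3, Klf10 and Klf16) had an adjusted p of at most 0.05 by limma, against 2601 of 13870 genes. Of the members 1 was called, against 522 of all genes. That fit leaves series and time mixed, and the members were chosen on time, so nothing is read from it.

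The median difference of the members, 0.087, was not stable in sign. It was -0.15 in series 1 alone and with series as a term, -0.024 with median-ratio scaling, which moves the median of all genes from 0.10 to -0.0042, and -0.080 with no filter, where Klf2 enters. Members higher at 8 h without overlap numbered 1 of 10, against 23.7% of the genes that passed the filter. With each library left out they numbered between 1 and 5 (5 without 8 h replicate 14, 2 without 1 h replicate 2). Those lower numbered 4 of 10 with Klf2 included, against 9.43% of the genes that passed the filter, and 1 of the 7 in the count table, against 7.04%. The shares over all genes with a library left out were not computed, so nothing is read from these counts. On the TPM tables, signs turned in series 1 alone and with series as a term for Klf3 (-0.040), Klf7 (-0.036), Klf13 (-0.15) and Klf16 (-0.0065). They also turned in the count table for Klf3 (-0.066) and Klf7 (-0.057), and with median-ratio scaling for Klf13 (-0.024) and Klf12 (-0.10). With a library left out Klf12 ranged from -0.022 (8 h replicate 14) to 0.044, and it was -0.0070 when 1 h replicate 1 was left out. The causes were not tested. Klf4, Klf6, Klf10, Klf11 and Klf15 kept their sign under every setting run on the TPM tables and in the count table with all columns. Other count settings were not compared for sign. In the count table Klf4 and Klf11 were higher in the column named 8 h replicate 14 than in either 1 h column. For Klf2 and Klf11 low coverage limits the precision.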
